A study of Sus scrofa with 3 samples.

Results

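The striated muscle miRNAs, often called myomiRs, were described in pig liver small RNA libraries of 3 stages. The 6 members, miR-1, miR-133a, miR-133b, miR-206, miR-208b and miR-499, were taken by name from the rows of known miRNAs, at any level. They are 6 of 676 miRNAs named in the tables. Of their 12 possible mature arms, 8 were listed with a read, out of 1005 arm names in all. miR-133b-3p is among the 8, but its reads were all shared with miR-133a. The arms miR-1-5p, miR-133b-5p, miR-206-5p and miR-208b-5p were listed in none of the 3 tables. The livers came from male pigs of the Jinhua breed at embryonic day 90 (the E90 library), postnatal day 30 (P30d, labelled as weaning) and postnatal year 7 (P7y, labelled as adult), with no treatment named in the labels. The labels speak of 3 pigs at each stage and give 1 library per stage. Whether each library is a pool is not stated, so the spread between animals could not be measured and no p-value is given.

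MyomiRs are transcribed mainly in skeletal and heart muscle, where miR-1, miR-133 and miR-206 act in the differentiation and growth of muscle cells. miR-499 and miR-208b lie within genes of myosin heavy chains and belong to the slow muscle fibre programme of mice. In liver, the miRNA pool is led by hepatocyte miRNAs such as miR-122, and myomiRs are known as minor species. A miRNA hairpin gives a 5p and a 3p arm, and the seed, bases 2 to 8 of an arm, pairs with target messages.

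The known mature sequences, as the deposited tables give them from miRBase, are shown because the seeds and the near-identical ends decide which reads can be told apart. Capitals mark the seed, and each arm is written 5′ to 3′.
miR-499-5p: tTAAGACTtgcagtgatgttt
miR-499-3p: aACATCACagcaagtctgtgct
miR-208b-3p: aTAAGACGaacaaaaggtttgt
miR-133a-3p: tTGGTCCCcttcaaccagctg
miR-133a-5p: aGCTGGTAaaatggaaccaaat
miR-133b-3p: tTTGGTCCccttcaaccagctat
miR-1-3p: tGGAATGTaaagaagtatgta
miR-206-3p: tGGAATGTaaggaagtgtgtga
miR-1-3p and miR-206-3p shared all 7 bases of the seed and differed over their first 21 bases by A11G, A17G and A21G, with positions counted from 1 at the 5′ end and the base of miR-1-3p first. miR-499-5p and miR-208b-3p shared 6 of 7 seed bases, the difference being T8G with the base of miR-499-5p first.

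The hairpins lay in 3 close pairs and 2 single sites, in coordinates of Sscrofa10.2. The hairpin of mir-133a-1 (chr17:69274653-69274755, minus strand) and that of mir-1 (chr17:69285393-69285500, minus strand) were 10637 bases apart. A hairpin named after cattle mir-1-2 (chr6:99481915-99482025, plus strand) was 3175 bases from mir-133a-2 (chr6:99485201-99485288, plus strand), and mir-206 (chr7:52426445-52426524, plus strand) was 3760 bases from mir-133b (chr7:52430285-52430388, plus strand). The single sites were mir-499 (chr17:43571130-43571249, plus strand) and mir-208b (chr7:81071310-81071405, minus strand). By RefSeq's gene table of Sscrofa11.1, used for names only, MIR499 lies within MYH7B, MIR208B within MYH7 and MIR133A-2 within MIB1. MYH7B and MYH7 encode myosin heavy chains and MIB1 a ubiquitin ligase of Notch signalling. Their position relative to exons and introns was not analysed here.

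The tables held 9406525 reads in E90, 3775157 in P30d and 9935073 in P7y, of which 98.3%, 96.0% and 99.9% were assigned to known miRNAs. Levels are given in CPM, reads per 1000000 of those known-miRNA reads, and intervals are exact 95% intervals that cover counting error only, since PCR reads are not independent molecules. For reads divided among hairpins they were taken on the rounded count, which is not a number of whole reads. For ratios and plots an arm with 0 reads was entered at the level of 3 reads. That level was 0.325 CPM in E90, 0.828 CPM in P30d and 0.302 CPM in P7y. The exact upper limit of a count of 0 was 1.02 CPM in P30d and 0.372 CPM in P7y. The liver label was set against 3 hepatocyte miRNAs, miR-122, miR-192 and miR-194. Together they held 23.8% of miRNA reads in E90, 32.5% in P30d and 19.3% in P7y. Within that list the arm miR-122-5p had 128017 CPM in E90, 213802 CPM in P30d and 37870 CPM in P7y. The summed share therefore does not show how low miR-122-5p was in P7y.

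The 6 members together held 1628 reads in E90, 1388 in P30d and 823 in P7y. These were 0.0176% (0.0168 to 0.0185) of miRNA reads in E90, 0.0383% (0.0363 to 0.0404) in P30d and 0.00830% (0.00774 to 0.00888) in P7y. Their summed level was 176 CPM in E90, 383 CPM in P30d and 83.0 CPM in P7y, so P30d was the high library and P7y the low one. For each read of a member there were 727 reads of the hepatocyte arm miR-122-5p in E90, 558 in P30d and 456 in P7y. In bulk liver, fewer cells that carry a miRNA and less of it per cell cannot be told apart.

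The log2 ratio of the sum was 1.12 (1.02 to 1.23) for P30d over E90, -2.21 (-2.33 to -2.08) for P7y over P30d and -1.09 (-1.21 to -0.96) for P7y over E90. A ratio was called where it reached 2-fold and its interval excluded 0 on the log2 scale, so the sum was called higher in the first pair and lower in both others. With TMM scaling, which sets a trimmed mean of all names equal between libraries, the ratio of P7y over E90 was -0.17 and that of P30d over E90 was 0.97, and neither was called. TMM scaling moved every log2 ratio by -0.15 for P30d over E90, by 1.07 for P7y over P30d and by 0.92 for P7y over E90.

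Of the 8 arms, 6 gave a ratio for P30d over E90, of which 3 were called higher and 1 lower. By the same rule 59.1% of the 663 names with more than 3 reads in either library were called, 28.2% higher and 30.9% lower. For P7y over P30d, 1 of 5 arms was called higher and 2 lower, where 63.1% of 621 names were called, 11.3% higher and 51.9% lower. For P7y over E90, 1 of 7 arms was called higher and 4 lower, where 63.7% of 692 names were called, 13.6% higher and 50.1% lower. The median log2 ratio over member arms was 0.47, -0.60 and -1.59 in those pairs in turn, and over all names -0.17, -1.26 and -1.10. These calls and medians include arms with 3 reads entered for 0, all called lower. They were miR-208b-3p for P30d over E90 and miR-499-3p for P7y over P30d. For P7y over E90 they were miR-133a-5p, miR-208b-3p and miR-499-3p, and without arms at 0 the called arms of that pair numbered 2, not 5. The shares of member arms called were near those of all names, and each library enters 2 of the 3 pairs. The arm called higher in the pairs with P7y was miR-1-3p, whose reads in P7y all carried a mismatch. With TMM scaling, 172 names were higher and 225 lower for P30d over E90, against 187 and 205 as given. For P7y over P30d TMM gave 174 higher and 204 lower, against 70 and 322, and for P7y over E90 it gave 183 and 233, against 94 and 347. Only miR-499-5p and miR-133a-3p were among the 333 of 1005 names with a mean of 10 CPM or more.

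**Figure D1:**
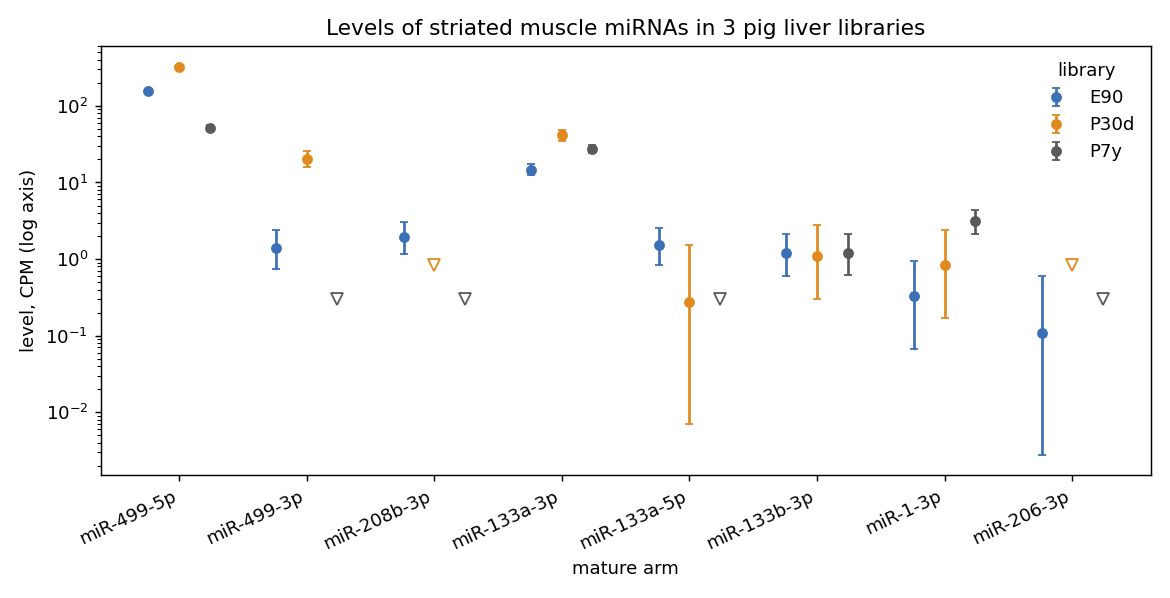
The level of each of the 8 member arms is plotted in CPM on a log axis for the E90, P30d and P7y libraries, with exact 95% counting intervals as bars and open triangles at the level of 3 reads where an arm had 0 reads. miR-499-5p, at 155, 319 and 51.5 CPM, was the highest arm in every library, and miR-133a-3p was next.

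miR-499, the miRNA of MYH7B, supplied most of the reads. Its 5p arm had 1432 reads in E90, 1157 in P30d and 511 in P7y, or 155 CPM (147 to 163), 319 CPM (301 to 338) and 51.5 CPM (47.1 to 56.2). It ranked 157 of 802 names with a read in E90, 117 of 764 in P30d and 163 of 586 in P7y. Its intervals, which cover counting error only, did not overlap between any pair of libraries, with P30d highest and P7y lowest. Of all names, 59.1% to 63.7% were called in a pair, and how many had intervals apart was not counted. The log2 ratio of miR-499-5p was 1.04 (0.93 to 1.16) for P30d over E90, called higher. It was -2.63 (-2.79 to -2.48) for P7y over P30d, called lower, a level 6.20-fold lower in P7y. P7y over E90 was at -1.59 (-1.74 to -1.44), also called lower. With TMM scaling the log2 ratio of miR-499-5p was 0.90 for P30d over E90 and -0.67 for P7y over E90, neither of them called, and P7y over P30d was still called lower. The call for P30d over E90 was also lost without mismatched reads, at 0.95, and with representative reads only, at 0.86, and that for P7y over E90 with DESeq2's median-of-ratios factors, at -0.54.

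The 3p arm of miR-499 had 13 reads in E90, 74 in P30d and 0 in P7y. These were 1.41 CPM (0.749 to 2.40), 20.4 CPM (16.0 to 25.6) and 0 CPM (up to 0.372). The arm was therefore high in the P30d library, the shallowest of the 3, and was not detected in P7y, one of the deeper pair. The log2 ratio of P30d over E90 was 3.86 (2.999 to 4.84). With 3 reads entered for 0, the level in P7y was 67.5-fold lower than in P30d and 4.65-fold lower than in E90. The exact intervals, which also cover counting error, reached log2 ratios of -5.74 for P7y over P30d and -1.71 for P7y over E90. The 3p arm was 0.900% (0.480 to 1.53) of the miR-499 reads in E90, 6.01% (4.75 to 7.49) in P30d and 0 of 511 in P7y, which allows up to 0.719%. This share does not depend on scaling. Among 183 hairpins with at least 50 reads in both libraries and more than 3 of the minor arm in either, the share of the minor arm was higher in P30d than in E90 in 56.3%, and among 161 hairpins it was lower in P7y than in P30d in 59.0%.

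The arms of miR-499 lie on either side of the loop of a single hairpin, which is shown whole with the representative read of each arm in capitals. A representative read is the read that the authors' tables give for an arm.
mir-499 hairpin: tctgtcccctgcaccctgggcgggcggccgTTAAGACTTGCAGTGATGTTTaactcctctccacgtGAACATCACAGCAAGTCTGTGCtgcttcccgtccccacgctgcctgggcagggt
The representative read of the 5p arm equalled the known miRNA in all 3 libraries and had 969 copies among 1429 reads of the pig hairpin in E90, 698 among 1157 in P30d and 315 among 505 in P7y. The 3p read was 1 base longer at its 5′ end and 1 base shorter at its 3′ end than the known arm, in both E90 and P30d. Bases 2 to 8 of that read therefore start 1 base before the seed marked above for the known miR-499-3p. Reads of miR-499-5p without a mismatch made up 98.1% in E90, 97.1% in P30d and 93.9% in P7y. Of the miR-499-5p reads, 3 in E90 and 6 in P7y were listed under the platypus name, with C11T against the pig sequence, the pig base first.

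miR-208b, the miRNA of the slow myosin gene MYH7, had 18 reads in E90, 0 in P30d and 0 in P7y, a level of 1.95 CPM (1.15 to 3.08) in E90. It was thus seen in E90 only, at a level over the 0-read limit of both postnatal libraries. With 3 reads entered for 0, the level was 2.35-fold lower in P30d and 6.44-fold lower in P7y than in E90. The exact intervals, which also cover the counting error of the 18 reads, reached log2 ratios of -0.79 for P30d over E90 and -2.24 for P7y over E90. Of the 18 reads, 8 had no mismatch (44.4%, 21.5 to 69.2), and these 8 copies were the representative read, identical to the known miRNA. With reads without a mismatch only, and 3 reads entered for 0, the log2 ratio for P30d over E90 was -0.14, and no call was made.

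miR-133a, a repressor of smooth muscle genes in the heart of mice, was the second member by level. Its 3p arm had 136 reads in E90, 149 in P30d and 269 in P7y, or 14.7 CPM (12.3 to 17.4), 41.1 CPM (34.8 to 48.3) and 27.1 CPM (24.0 to 30.6). P30d was again the high library in CPM, although P7y was with TMM scaling, and E90 was the low one under both. The log2 ratio was 1.48 (1.14 to 1.83) for P30d over E90, called higher. P7y over P30d was at -0.60 (-0.90 to -0.30) and P7y over E90 at 0.88 (0.58 to 1.19), neither called. With TMM scaling the ratio of miR-133a-3p turned to 0.47 for P7y over P30d, and that of P7y over E90 was 1.80 and called higher.

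The 5p arm of miR-133a had 14 reads in E90, 1 in P30d and 0 in P7y. It was 9.33% (5.20 to 15.2) of miR-133a reads in E90, 0.667% (0.0169 to 3.66) in P30d and 0 of 269 in P7y, which allows up to 1.36%. The intervals in P30d and P7y lay below that in E90. The log2 ratio of its level for P30d over E90, with 1 read in P30d, was -2.46 (-7.86 to 0.26) and was not called. With 3 reads entered for 0, the level in P7y was 5.01-fold lower than in E90. The exact log2 interval, which also covers counting error, reached -1.83. The minor arm of miR-499 and that of miR-133a thus had their highest share in different libraries, P30d for miR-499 and E90 for miR-133a.

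The balance between miR-499-5p and miR-133a-3p, which no scaling of libraries can alter, was 10.5 reads (8.83 to 12.6) of miR-499-5p per read of miR-133a-3p in E90, 7.77 (6.54 to 9.27) in P30d and 1.90 (1.64 to 2.21) in P7y. The odds of a miR-499-5p read were 0.245-fold (0.194 to 0.308) in P7y relative to P30d, 0.181-fold (0.142 to 0.228) in P7y relative to E90 and 0.738-fold (0.573 to 0.949) in P30d relative to E90. Of all reads of the 6 members, miR-499 held 88.8% (87.1 to 90.3) in E90, 88.7% (86.9 to 90.3) in P30d and 62.1% (58.7 to 65.4) in P7y. miR-133a held 9.21% (7.85 to 10.7), 10.8% (9.22 to 12.6) and 32.7% (29.5 to 36.0) in the same order of stages. Without miR-499 the other members summed to 183 reads (19.8 CPM) in E90, 157 reads (43.3 CPM) in P30d and 312 reads (31.5 CPM) in P7y. The log2 ratio of that sum was 1.13 (0.81 to 1.45) for P30d over E90, called higher, -0.46 (-0.74 to -0.18) for P7y over P30d and 0.67 (0.40 to 0.94) for P7y over E90. In CPM, the lower level of the whole sum in P7y than in E90 was therefore not seen without miR-499. miR-208b-3p and miR-133a-5p, each at 0 reads in P7y, were also called lower in that pair. With TMM scaling the whole sum was at -0.17 in that pair and was not called.

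**Figure D2:**
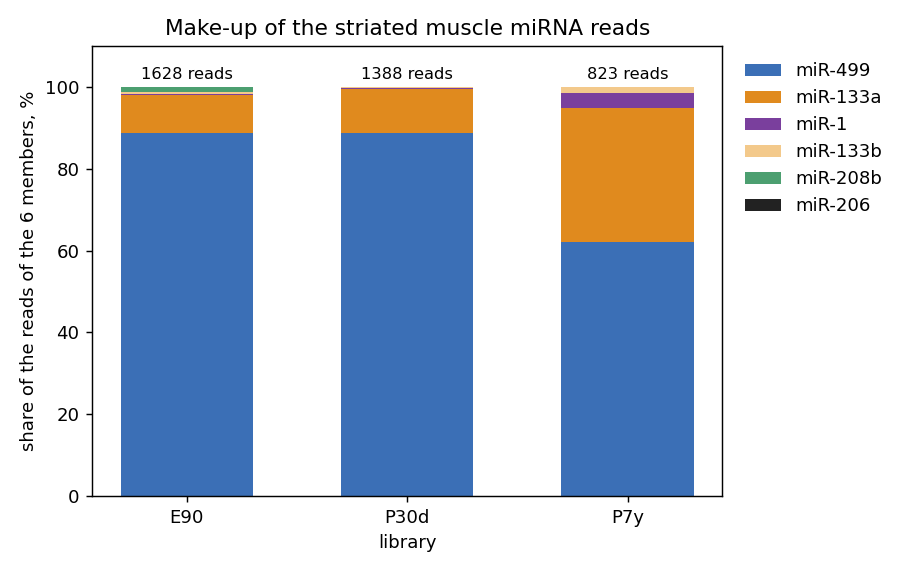
Stacked bars give the share of each member among the reads of all 6, in percent, for the E90, P30d and P7y libraries, with the number of reads above each bar. miR-499 took 88.8% in E90, 88.7% in P30d and 62.1% in P7y, and miR-133a took 32.7% in P7y.

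miR-133b, the partner of miR-206, could not be told apart from miR-133a in these tables. The reads listed for its hairpin were 34 in E90, 11 in P30d and 35 in P7y, or 3.68 CPM (2.55 to 5.14), 3.04 CPM (1.52 to 5.43) and 3.53 CPM (2.46 to 4.91). The log2 ratios of these undivided reads were -0.28 (-1.41 to 0.74) for P30d over E90, 0.22 (-0.79 to 1.34) for P7y over P30d and -0.06 (-0.78 to 0.66) for P7y over E90, none of them called. The divided counts of miR-133b, 11.3, 3.67 and 11.7 reads, are those numbers over 3, the number of hairpins each read was split among, and they were rounded to whole reads for the counts of calls and the plots. Each of those reads was therefore counted in equal parts for mir-133b, mir-133a-1 and mir-133a-2. The reads involved are shown with capitals on the last 2 bases of the 23-base forms.
miR-133a-3p representative read: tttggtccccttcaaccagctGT
miR-133b known sequence: tttggtccccttcaaccagctAT
miR-133b representative read: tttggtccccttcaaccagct
The 23-base forms differed by G22A alone, counted from the 5′ end with the base of miR-133a first. The representative read of miR-133b was 21 bases long, stopped short of that base and lay within both miR-133a hairpins. Reads of the miR-133a 3p arm that were not shared with miR-133b were 113 in E90, 142 in P30d and 246 in P7y, and they alone separate the pair. Their log2 ratio was 1.68 (1.31 to 2.05) for P30d over E90, -0.66 (-0.96 to -0.35) for P7y over P30d and 1.02 (0.69 to 1.35) for P7y over E90, the last of which was called higher, as the divided count was not. mir-133a-1 and mir-133a-2 had equal divided counts in each library, 67.8, 74.7 and 134.7 reads, so the loci on chromosomes 17 and 6 could not be told apart either. The representative read of miR-133a-3p was 1 base longer at both ends than the known arm in all 3 libraries, so it began at the same base as the known miR-133b and shared all 7 bases of its seed.

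miR-1, the most abundant miRNA of heart and skeletal muscle in mammals, was at the edge of detection. It had 3 reads in E90, 3 in P30d and 31 in P7y, or 0.325 CPM (0.0669 to 0.948), 0.828 CPM (0.171 to 2.42) and 3.12 CPM (2.12 to 4.44). P7y was the high library. The log2 ratio was 1.92 (0.24 to 4.27) for P7y over P30d and 3.27 (1.59 to 5.62) for P7y over E90, both called higher. None of the 31 reads in P7y matched the miR-1 hairpins without a mismatch (0%, up to 11.2), nor did any of the 3 reads in E90, and 1 of 3 did in P30d. Counted without mismatched reads, miR-1 had 0 reads in E90, 1 in P30d and 0 in P7y, so that no ratio can be given.

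The representative reads of miR-1 and miR-206 are shown with the mismatched base in capitals.
miR-1 in E90: Nggaatgtaaagaagtatgtat
miR-1 in P30d: Gggaatgtaaagaagtatgtat
miR-1 in P7y: tggGatgtaaagaagtatgtat
miR-206 in E90: tggaGtgtaaggaagtgtgtga
Against the known miR-1 the reads carried T1N in E90, in 2 of 3 reads, T1G in P30d, in 1 of 3, and A4G in P7y, in 18 of the 30 reads of the pig hairpin, with the known base first. N is a base that was not read. The 1 read listed in P7y for the cattle-named mir-1-2 hairpin carried A4G and A17G. The mismatch in P7y, at base 4, falls in the seed. The exact sequence of miR-1 or of miR-206 was the representative read of none of the 2628, 1584 and 1288 rows of the E90, P30d and P7y tables.

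Such a lack of matching reads was rare among pig miRNAs. Of pig-named names with at least 30 reads, 3 of 204 in P7y had no exact read, namely miR-1-3p, let-7f-3p and miR-326-3p, while in E90 there were 0 of 239 and in P30d none. Over all known-miRNA reads, 81.4% in E90, 86.1% in P30d and 78.3% in P7y had no mismatch, so P7y had the largest share of mismatched reads. The part of read quality in the miR-1 count was not tested. miR-133a-3p, which neighbours miR-1 in the genome, had 91.9% of reads without a mismatch in E90, 91.9% in P30d and 89.6% in P7y.

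**Figure D3:**
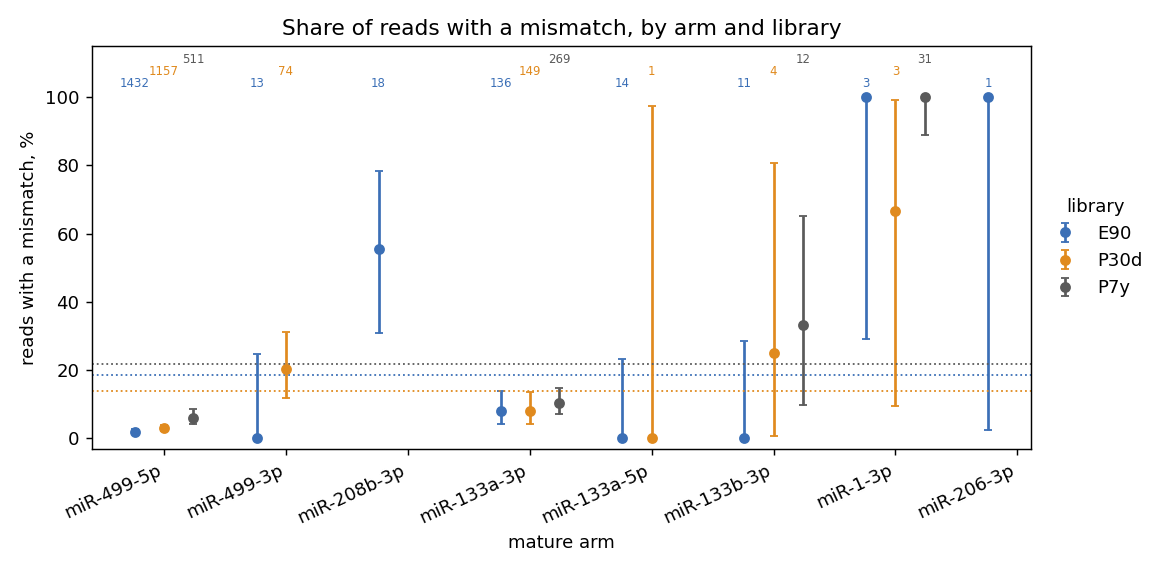
The share of reads with a mismatch, in percent, is plotted for each member arm and library with exact 95% intervals and the number of reads on top. Dotted lines give the share over all known-miRNA reads of each library. All 31 reads of miR-1-3p in P7y carried a mismatch (100%, 88.8 to 100), while miR-499-5p and miR-133a-3p lay under the dotted lines.

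miR-206, which in mammals is largely limited to skeletal muscle, had 1 read in E90 and 0 in both other libraries. That read carried A5G against the known miR-206. No ratio can be given at this depth, and the counts of 0 allow a level of up to 1.02 CPM in P30d and 0.372 CPM in P7y. miR-206 and miR-208b were thus the members with 0 reads in P30d and in P7y, while miR-499, miR-133a and miR-1 had reads in all 3 libraries, and no read was shown to be miR-133b rather than miR-133a.

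**Figure D4:**
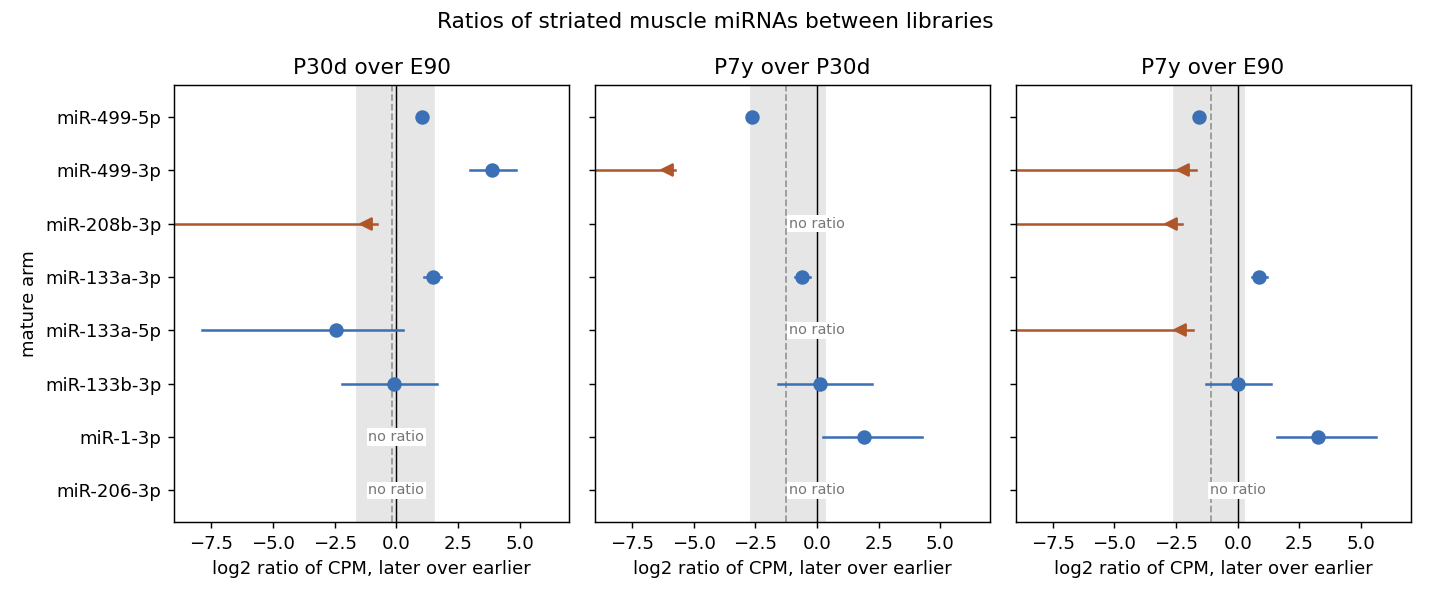
Log2 ratios of CPM (later library over earlier) are plotted for each member arm in the 3 pairs of libraries, with exact 95% intervals. Triangles are ratios with 3 reads entered for 0. The grey band and dashed line are the quartile range and median of all names with more than 3 reads in either library. miR-499-5p lay at 1.04, -2.63 and -1.59, and miR-1-3p at 1.92 and 3.27 in the pairs with P7y. All 31 reads of miR-1-3p in P7y carried a mismatch.

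Other miRNAs linked to muscle were taken from a list of 5: miR-208a of heart, miR-486 and miR-378, which are found in muscle and elsewhere, and miR-143 with miR-145 of smooth muscle. Of their 9 arms, 8 gave a ratio for P30d over E90, of which 3 were higher and 3 lower, where 28.2% of all names were higher and 30.9% lower. For P7y over P30d 3 of 9 were higher and 1 lower, where 11.3% of all names were higher and 51.9% lower. For P7y over E90 4 were higher and 2 lower, where 13.6% and 50.1% of all names were. The arms called higher in both pairs with P7y were miR-143-3p, miR-145-5p and miR-208a-3p, with miR-145-3p also higher in P7y over E90. miR-208a-3p had 17 reads in P7y, none of them exact, and its ratios have 3 reads entered for 0. In CPM no arm of miR-486 or miR-378 was called higher in a pair with P7y. The median log2 ratios of the listed arms were -0.36, 0.49 and 0.45 in the 3 pairs, beside -0.17, -1.26 and -1.10 over all names. With TMM scaling 2 were higher and 3 lower in the first pair, beside 172 and 225 of all 663 names. In the second pair 6 were higher and 0 lower with TMM, beside 174 and 204 of 621 names, and in the third 5 and 0, beside 183 and 233 of 692 names. miR-378-3p had 265 CPM in E90, 688 CPM in P30d and 362 CPM in P7y, with P30d high. miR-486-5p, which red blood cells also hold, had 1147, 445 and 406 CPM in the same order, with E90 high.

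The major arms of miR-143 and miR-145 followed the opposite order to the striated sum. miR-143-3p had 51124 CPM in E90, 17730.4 in P30d and 102623 in P7y, and miR-145-5p had 1189, 1043 and 4688 CPM. miR-145-3p, with 409, 869 and 940 CPM, did not share that order. The log2 ratio of miR-145-5p for P30d over E90 was -0.19 and was not called. Without miR-499 the striated sum was lowest in E90, at 19.8 CPM beside 43.3 CPM in P30d and 31.5 CPM in P7y. With TMM scaling the whole striated sum for P7y over E90 was at -0.17 and was not called. The smooth muscle pair held 5.29%, 1.97% and 10.8% of miRNA reads in E90, P30d and P7y, so there were 300.1, 51.5 and 1306 smooth muscle reads per striated muscle read. miR-208a, whose seed family includes miR-208b, had 0 reads in E90, 0 in P30d and 17 in P7y, each the same 17-base read with T2A against the known sequence, and none exact.

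Markers of other tissues were read in the same way, and their part in the myomiR levels was not tested. The exocrine pancreas list (miR-216a, miR-216b and miR-217) held 0.00465% of reads in E90, 0.000138% in P30d and 0 in P7y. The neural list (miR-9, miR-124, miR-129, miR-137 and miR-138) held 0.00369%, 0.00171% and 0.00179%, with miR-124 and miR-129 at 0 in all 3 libraries. The erythroid list (miR-451, miR-144 and miR-486) held 0.724%, 0.303% and 0.182%. Unlike the striated muscle list, these 3 lists had their highest share of reads in E90.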

How the data were processed

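Small RNA of liver was sequenced in 3 libraries, 1 per stage, grouped by the age in their labels. Per the labels' protocols, RNA of integrity number above 6.0 was enriched for its small fraction, fragments of 14 to 40 nt were purified on gels, and libraries were amplified by PCR and read on a Genome Analyzer II. Reads had been mapped by the authors to miRBase hairpins of pig and further mammals, per the file headers, and the hairpins sorted into groups, the last being predicted candidates. The deposited reads of an arm are expected counts, because reads that match several hairpins are shared out among them, and they are split into reads without and with a mismatch. The deposited copies of the representative read and reads per hairpin are counts. The build is Sscrofa10.2, per the submitters' processing notes, and the tables' coordinates are used. For the aligner, the miRBase release, the trimming and the mismatches allowed, nothing is given in the sources used here.

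Expected counts of known-miRNA groups were summed per name and arm, without species prefix and copy number, rounded, and divided by the known-miRNA total of the library, per 1000000. Mature arms of 21 to 23 bases were compared without a length correction. Log2 ratios have exact conditional binomial 95% intervals, and shares and levels have exact Clopper-Pearson intervals. Only the levels of undivided miR-133b reads have exact Poisson intervals. A call needed 2-fold and an interval that excluded 0. A count of 0 was entered as 3 reads per library, and the exact interval gives the bound that covers counting error. No ratio was given where both libraries had 3 reads or fewer. Chromosomes of the hairpins were named through the miRNA genes that RefSeq places on them, and 7 of 8 member hairpins matched RefSeq by name.

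Named miRNAs were all member arms, a list of other muscle miRNAs, and the 5 names of 10 CPM or more whose profile of log2(CPM + 1), centred on its mean, was nearest to the members' sum. The members, lists and rules were chosen with earlier results of these data known. Tried as alternatives were scaling by edgeR 4.0.16 (TMM), scaling by DESeq2 1.42.0 (median of ratios), a total of all groups, a total without the 5 most abundant names of any library, reads without a mismatch, copies of the representative read, pig names only, any listed name, a filter at 10 CPM, no arms at 0, the major arm only and, added after seeing the data, the sum without miR-499 and, for miR-133, undivided and unshared reads. The work used R 4.3.3 and Python 3.11.15 with SciPy 1.17.1, NumPy 2.4.6, pandas 2.3.3 and matplotlib 3.10.9. The ratios and calls were run on simulated data that held counting error only. Changes were simulated only in names with a mean of 10 CPM or more, so no change in a lower arm was tried.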

Additional observations from a re-analysis of the deposited data

How the results depend on the processing

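No paired analysis was possible because each stage has 1 library and the labels give no replicate numbers, and for the same reason no library could be left out of a stage. Of 144 ratios of member arms over the alternatives planned, 126 kept their direction and call, 7 lost the call, 3 gained one, 6 changed direction and 2 could not be given, both of miR-1 without mismatched reads, which were called higher with all reads. With any listed name every ratio equalled the one from the main setting, so that alternative is no check although its ratios are among the 126. The log2 ratio of the sum for P30d over E90 was 0.97 with TMM and 0.91 with representative reads only, not called. For P7y over E90 it was -0.17 with TMM, -0.037 with DESeq2's factors and -0.76 without the 5 most abundant names in the total, not called, and it turned to 0.67 without miR-499. For P7y over P30d it was -0.46 without miR-499. miR-133a-3p for P7y over P30d turned to 0.47 with TMM and 0.41 with DESeq2's factors. miR-133b for P7y over E90, at 0.02 with rounded divided counts, turned to -0.060 with undivided reads and -0.51 without mismatched reads. It turned to -1.16 with representative reads, where it was called lower, and to -0.0028 with pig names only. For P7y over P30d it turned to -0.62 with representative reads. Copies of that representative read, 33 in E90, 9 in P30d and 15 in P7y, were not divided among hairpins. The read lies within both miR-133a hairpins too, so the call cannot be given to miR-133b rather than miR-133a. Called arms for P30d over E90 numbered 2, not 4, without mismatched reads and with representative reads, and for P7y over E90 2, not 5, without arms at 0. The share of miRNA reads in E90, P30d and P7y was 0.0382%, 0.0833% and 0.0225% without the 5 most abundant names, 0.0210%, 0.0425% and 0.00938% without mismatched reads, and 0.00198%, 0.00433% and 0.00315% without miR-499. It was 0.0206% in E90 with representative reads, and in P30d 0.0404% with pig names only and 0.0362% with the major arm only. The cause of these shifts was not tested. Depth limits miR-1, miR-206, miR-208b and the minor arms, which rest on few reads.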

Other observations

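Of 331 other names with a mean of 10 CPM or more, the 5 whose profile over the 3 libraries was nearest to that of the members' sum were miR-1285-3p, miR-200a-3p, miR-26b-5p, miR-331-5p and miR-1343-3p. Nearness was the sum of absolute differences of centred log2(CPM + 1) profiles, at 0.11 for miR-1285-3p, 0.12 for miR-200a-3p, 0.41 for miR-26b-5p, 0.43 for miR-331-5p and 0.50 for miR-1343-3p. miR-1285-3p had 430 CPM in E90, 955 in P30d and 218 in P7y, and miR-200a-3p, a miRNA of epithelial cells, had 86.1, 187 and 37.6 CPM. A profile of 3 libraries has few shapes, so nearness describes these libraries only. A platypus-named mir-208 hairpin had 1 read in E90, which was not exact.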
